A study of Homo sapiens with 6 samples.

Results

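Collagens, laminins and integrins make up the scaffold around cells and the receptors that hold it. Collagen chains assemble into trimers that form fibrils, nets or beaded filaments, laminins are cross-shaped trimers of an alpha, a beta and a gamma chain that lie in the basement membrane, and integrins are cell-surface pairs of an alpha and a beta subunit that bind these proteins and link them to the actin skeleton. In glioma, tumour cells secrete part of this matrix themselves and use integrins to move through brain tissue. The genes were taken by name, as every entry of the expression table called COL plus a number, A and a number, LAM plus A, B or C and a number, ITGA plus a number or V, or ITGB plus a number. This rule gave 73 of the 23002 genes listed, namely 42 collagen genes, 11 laminin genes, 12 integrin alpha genes and 8 integrin beta genes, so 53 matrix genes stood against 20 receptor genes.

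RNA was sequenced from U251, an established human glioblastoma cell line, made stable with a lentivirus that carried either a non-targeting short hairpin RNA (sh-NC, 3 samples) or a short hairpin RNA against TRAF2 (sh-TRAF2, 3 samples). TRAF2 is an adaptor protein that passes on signals from tumour necrosis factor receptors, and the study asked what its loss does to glioblastoma cells, among other things to their migration and invasion. Both groups carried a lentivirus, the labels give no untransduced cells, and the sources used here do not say which of the study's TRAF2 hairpins was sequenced. The samples of a group are biological replicates by the series description, but whether they came from separately transduced cultures is not said, so p-values measure the spread between these samples.

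The deposited values were FPKM, which are fragments scaled to the length of the transcript and to the depth of the sample. The reads behind them came to between 33999558 and 36823562 per sample. TRAF2 checked the labels, with an FPKM of 15.1, 18.4 and 15.3 in sh-NC and of 3.26, 3.22 and 3.33 in sh-TRAF2, lower by 79.9% (adjusted p = 1.16e-06, limma). The 6 glial and mesenchymal markers for this line summed to an FPKM of 1433 to 1507 in sh-NC and 1781 to 1829 in sh-TRAF2, most of it VIM. The glial markers GFAP and S100B were low, GFAP at 0.334 to 1.62 FPKM and S100B at or below 1 read. The 3 endothelial, the 3 epithelial and 2 of 3 fibroblast markers summed to at most 0.0983, 0.0245 and 0.794. Of 4 leukocyte markers 2 were in the table, summing to 15.8 to 16.5 in sh-NC and 14.9 to 17.6 in sh-TRAF2, with CD68 carrying the sum and PTPRC at 1 read or none. The part of other cells in the results was not tested. In bulk RNA of this kind, fewer cells with a transcript and less transcript per cell cannot be told apart.

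Of the 73 genes, 38 reached a mean FPKM of 0.5 over the 6 samples and were compared with limma on log2(FPKM + 0.1), 25 on the matrix side and 13 on the receptor side. The other 35 were too low for that comparison, and 11 of them never had more than 3 reads in any sample. Among the 38, 7 were higher and 17 were lower in sh-TRAF2 at a Benjamini-Hochberg adjusted p under 0.05. Over all 11870 genes compared, 23.7% were higher and 20.9% were lower, so lower genes took 44.7% of the members and higher genes 18.4%. The median log2 difference (sh-TRAF2 minus sh-NC) was -0.13 over the 38 members and 0.02 over all genes compared. Values of the 3 samples per group did not overlap for 8 members that were higher and 19 that were lower, beside 29.0% and 26.5% of all genes. COL7A1, COL8A1 and COL21A1 had a mean above 0.5 in 1 group only, so they entered the comparison through the group in which they were high.

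On the matrix side, 6 of 25 genes were higher and 11 were lower, with a median log2 difference of -0.10. On the receptor side, 1 of 13 was higher and 6 were lower, with a median of -0.21. The share of lower genes was thus 44.0% for the matrix and 46.2% for the receptors, and the share of higher genes 24.0% and 7.69%. Over all genes these shares were 20.9% and 23.7%. The difference between the sides was not tested. The count of lower receptors was fragile. It was 3 without sh-NC replicate 3, 4 without sh-TRAF2 replicate 1 or 2, and 5 or 6 without any other sample. At the study's fold threshold, a log2 difference beyond 1, 0 members were higher and 1 was lower, ITGB3, beside 0.986% and 0.733% of all genes. At an unadjusted p under 0.05 that limma count of higher members was also 0 (1.05% of all genes), while limma-voom on the recovered reads gave 1 (1.69% of all genes), LAMA3, which reached the mean of 10 reads for that fit only through the sh-TRAF2 samples.

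**Figure D1:**
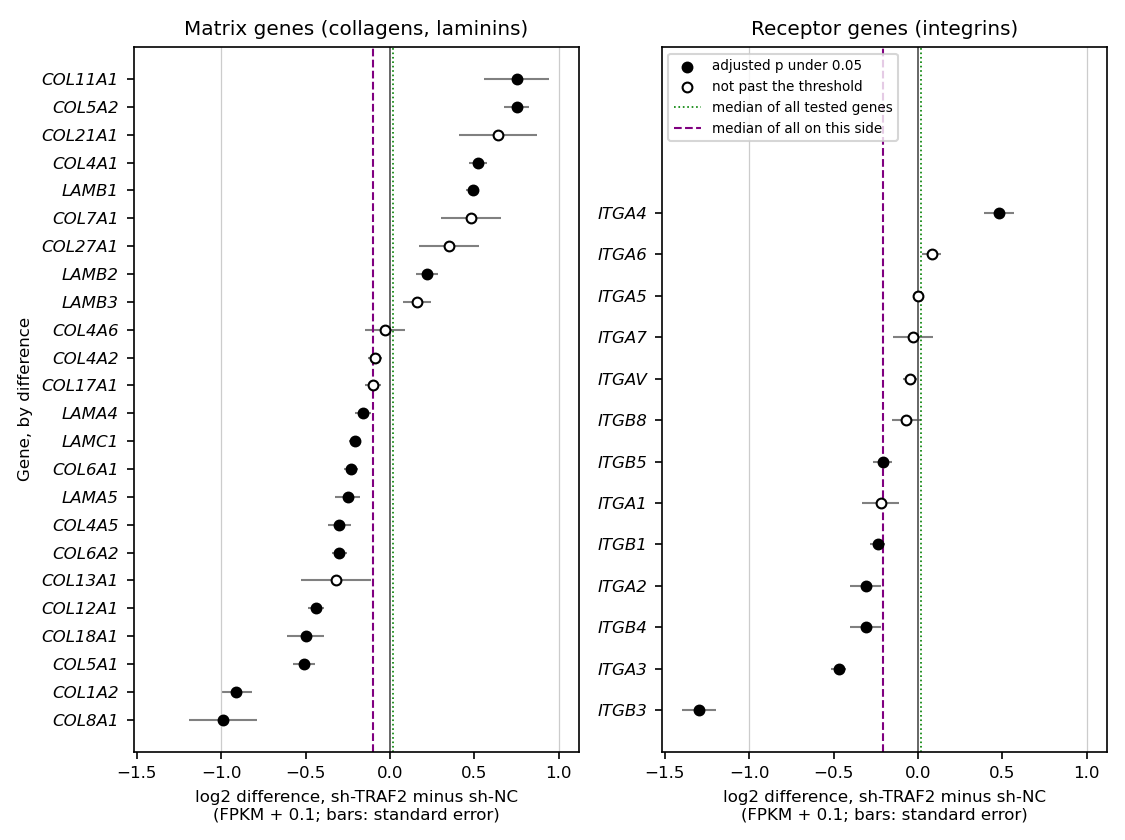
Log2 difference (sh-TRAF2 minus sh-NC, FPKM + 0.1) of 24 of the 25 matrix genes compared on the left and the 13 receptor genes on the right, with bars for the standard error and filled points for an adjusted p under 0.05. The matrix genes shown run from -0.99 to 0.75 with many on either side of 0, and the receptors from -1.30 to 0.48 with ITGA4 the only filled point above 0.

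Levels differed widely between the genes of a class. Summed over each class, collagen FPKM was 274, 273 and 275 in sh-NC and 226, 240 and 244 in sh-TRAF2, and laminin FPKM was 216, 225 and 216 against 223, 237 and 227. Integrin alpha FPKM summed to 484, 466 and 475 in sh-NC and 391, 393 and 405 in sh-TRAF2, and integrin beta FPKM to 224, 220 and 221 against 195, 178 and 186. The sh-TRAF2 samples therefore lay below every sh-NC sample in summed collagen, integrin alpha and integrin beta FPKM, and overlapped them in laminin FPKM. These sums were set by a few genes, with ITGA3 at 270 ± 5.97 (SD, n = 3) of the alpha sum of 475 in sh-NC, ITGB1 at 184 ± 2.98 (SD, n = 3) of the beta sum of 222, and LAMC1 at 94.5 ± 1.57 (SD, n = 3) of the laminin sum of 219. Levels between genes depend on the transcript lengths the authors used. Against the exons of GENCODE release 29 (GRCh38), the lengths implied by the reads were within 10% for 12 of the 17 members that the naming rule took, but came to 2.09 times the exons for COL4A1, 0.502 times for COL4A2, 1.36 times for ITGB3 and 1.27 times for COL5A1. Another length with the same reads would move these genes in the order of levels and leave the fold change of their FPKM between groups as it is. Counting reads over other exons could change both, and this was not tested.

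**Figure D2:**
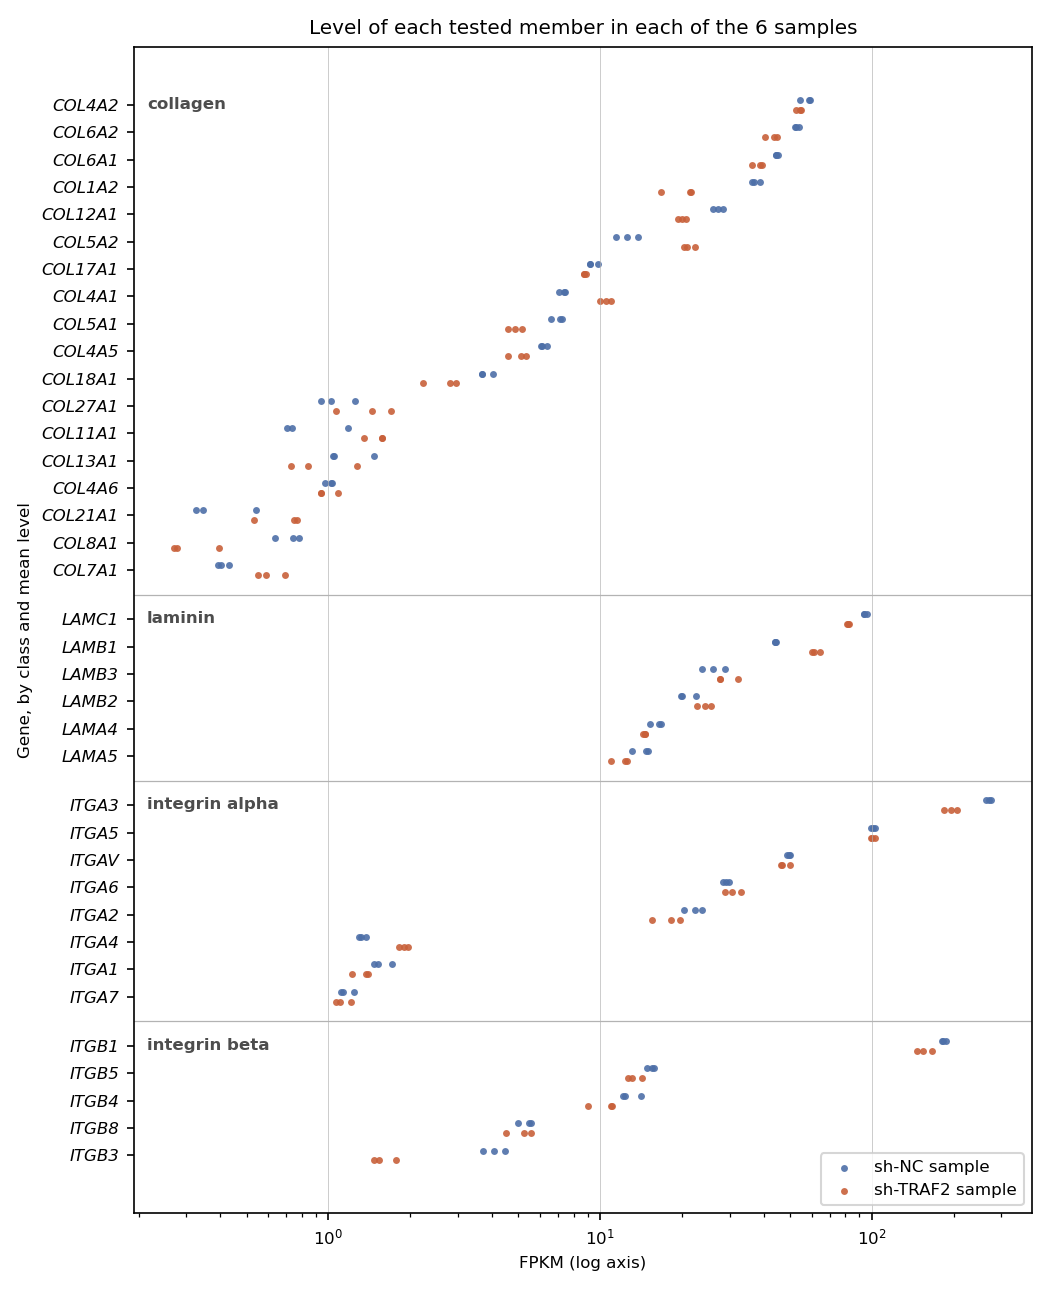
FPKM of 37 of the 38 members compared (log axis), with 1 point per sample, sh-NC in blue above and sh-TRAF2 in orange below each line, grouped by class and ordered by mean level. ITGA3, ITGB1, ITGA5 and LAMC1 stand highest, and the groups are apart for ITGB3, COL1A2, COL5A2 and LAMB1 and on top of each other for ITGA5.

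Fibrillar collagens form the banded fibrils of connective tissue. COL1A2, the alpha 2 chain of type I collagen (chr7:94394561-94431232, plus strand, GRCh38), had an FPKM of 36.9, 36.3 and 38.7 in sh-NC and of 16.7, 21.4 and 21.6 in sh-TRAF2. Every sh-TRAF2 sample was below every control, and the level fell by 46.6% (log2 difference -0.91, standard error 0.093, adjusted p = 0.000155). Its partner chain COL1A1, which contributes most chains of a type I trimer, was nearly silent, with 25, 43 and 9 reads in sh-NC and 25, 30 and 18 in sh-TRAF2, where COL1A2 had between 2949 and 7293. COL3A1 had 2 reads at most.

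Type V collagen, which sits inside type I fibrils and limits their width, changed in opposite directions in its main chains. COL5A1 (chr9:134641774-134844843, plus strand) read 6.61, 7.11 and 7.26 FPKM in sh-NC and 4.60, 5.17 and 4.85 in sh-TRAF2, a fall of 30.3% (log2 difference -0.51, standard error 0.066, adjusted p = 0.000486). COL5A2 (chr2:189031896-189225312, minus strand) read 12.6, 11.4 and 13.8 FPKM in sh-NC and 20.8, 20.4 and 22.3 in sh-TRAF2, a rise of 68.0% (log2 difference 0.75, standard error 0.072, adjusted p = 0.00012). The groups were apart for both genes. COL11A1, a chain of the related cartilage-type fibril collagen XI, rose from 0.735, 0.701 and 1.18 FPKM to 1.35, 1.58 and 1.58 (log2 difference 0.75, standard error 0.19, adjusted p = 0.0131), with sh-NC replicate 3 nearest to the knockdown samples. COL11A1 missed the threshold when every gene of the table was fitted (adjusted p = 0.0521), and its log2 difference was 0.42 with a pseudocount of 1. Of the 11 fibrillar genes 5 were compared, with 2 higher and 2 lower, beside 23.7% and 20.9% of all genes. COL27A1 was not past the threshold (adjusted p = 0.142), though without sh-TRAF2 replicate 1 it was (0.0377).

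Type IV collagen forms the sheet-like net of the basement membrane, and its genes lie head to head in pairs on opposite strands. The starts of COL4A1 and COL4A2 lie 127 bases apart on chromosome 13, those of COL4A3 and COL4A4 419 bases apart on chromosome 2, and those of COL4A5 and COL4A6 380 bases apart on chromosome X, by the RefSeq starts on GRCh38.p14. The stretch shared by COL4A1 and COL4A2 is printed because these neighbours, which share it and whose chains join in 1 trimer, gave different results. It is chr13:110307108-110307407 (GRCh38.p14), read on the minus strand so that COL4A1 runs to the right and COL4A2 to the left, with capitals from the COL4A2 start to the COL4A1 start:
COL4A1 and COL4A2: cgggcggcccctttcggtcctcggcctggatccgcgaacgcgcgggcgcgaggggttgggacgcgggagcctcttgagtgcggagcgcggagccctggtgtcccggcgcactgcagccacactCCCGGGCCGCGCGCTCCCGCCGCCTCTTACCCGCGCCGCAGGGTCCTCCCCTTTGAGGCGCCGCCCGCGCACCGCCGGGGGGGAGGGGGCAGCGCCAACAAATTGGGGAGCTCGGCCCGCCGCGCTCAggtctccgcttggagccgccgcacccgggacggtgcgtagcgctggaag
The hexamer GGGCGG occurs once on each strand of this window and CCAAT once on the strand not printed, as plain matches on either strand. Over all 35116 RefSeq windows of this length, 45.0% hold GGGCGG and 34.6% hold CCAAT, so the matches are common, and 55 of the 73 members have a window in that table.

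COL4A1 rose in sh-TRAF2. Its FPKM was 7.44, 7.36 and 7.08 in sh-NC and 10.5, 10 and 11 in sh-TRAF2, with the groups apart and a rise of 44.3% (log2 difference 0.52, standard error 0.054, adjusted p = 0.000169). COL4A2 read 58.6, 59.0 and 54.3 FPKM in sh-NC and 52.8, 54.2 and 54.7 in sh-TRAF2, and the groups overlapped (log2 difference -0.09, standard error 0.042, adjusted p = 0.129). Without sh-NC replicate 3, the lowest control, COL4A2 passed the threshold on the low side (log2 difference -0.13, adjusted p = 0.0405). Exons of COL4A2 also overlap the antisense genes COL4A2-AS1 and COL4A2-AS2, and the use of strand in counting is not given in the sources used here.

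Of the 5 net-forming collagens compared, 1 was higher, 2 were lower and 2 did not pass the threshold. Over all genes compared, 23.7% were higher and 20.9% were lower. COL4A5, the chain altered in X-linked Alport syndrome, fell from 6.12, 6.08 and 6.37 FPKM to 4.57, 5.11 and 5.32 (log2 difference -0.30, adjusted p = 0.00773), while COL4A6 read 0.973 to 1.03 FPKM in sh-NC and 0.937 to 1.08 in sh-TRAF2. COL8A1, a short-chain net collagen of vessel walls and cornea, fell from 0.740, 0.636 and 0.782 FPKM to 0.397, 0.277 and 0.271 (log2 difference -0.99, standard error 0.20, adjusted p = 0.00487). This was the largest fall among the matrix genes compared, but at this low level its size depended on the pseudocount, with a log2 difference of -0.39 at a pseudocount of 1 and -1.18 at 0.01. It crossed -1 without sh-NC replicate 2 (-1.07) and without sh-TRAF2 replicate 1 (-1.13). COL8A1 reached the mean FPKM of 0.5 for the comparison only through sh-NC, where it was high (0.719, against 0.315 in sh-TRAF2). Its partner chain COL8A2 was too low to be compared in the fit, with 11, 10 and 9 reads in sh-NC and 1 in each sh-TRAF2 sample. The ratio of its summed reads, 3 against 30 and scaled to depth, was 0.104 (exact 95% interval 0.0203 to 0.335, counting error only). COL8A2 was picked after its values were seen, so the interval is a description.

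Among the collagens outside fibrils and nets, 2 of 3 beaded-filament and anchoring-fibril genes, 1 of 2 fibril-associated genes and 1 of 3 transmembrane collagens and multiplexins compared were lower. Over all genes compared, 20.9% were lower, and these lists are too short to set against that share. COL6A1 and COL6A2, chains of the beaded filaments of collagen VI, fell together, COL6A2 from 52.3, 52.7 and 53.9 FPKM to 40.5, 44.8 and 43.6 (log2 difference -0.30, standard error 0.045, adjusted p = 0.000958) and COL6A1 by a log2 difference of -0.23 (adjusted p = 0.00299). The third chain COL6A3 had only 49 to 81 reads in any sample, against 5286 to 7080 for COL6A1. COL12A1, a collagen that decorates fibrils, fell from 28.3, 27.2 and 26.1 FPKM to 20.7, 19.4 and 20.1 (log2 difference -0.44, adjusted p = 0.000186). COL18A1, the basement membrane collagen whose tail fragment is endostatin, fell from 3.68, 4.02 and 3.67 FPKM to 2.22, 2.95 and 2.80 (log2 difference -0.50, standard error 0.11, adjusted p = 0.0064). The hemidesmosome collagen COL17A1 read 9.2, 9.8 and 9.21 FPKM against 8.73, 8.84 and 8.71, apart between groups but not past the threshold (adjusted p = 0.129).

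Laminin chains changed in both directions. Of the alpha chains, which carry the main integrin-binding end, 2 were compared and both fell, where 20.9% of all genes were lower. LAMA5 fell from 13.1, 14.8 and 15 FPKM to 11, 12.6 and 12.4 (log2 difference -0.25, adjusted p = 0.0228). LAMA4 fell from 16.5, 15.3 and 16.8 to 14.6, 14.4 and 14.6 (log2 difference -0.16, adjusted p = 0.0292). These calls were fragile, LAMA4 being lost without any sample but sh-NC replicate 2 (adjusted p from 0.0561 to 0.0958) and LAMA5 without sh-NC replicate 2, sh-NC replicate 3 or sh-TRAF2 replicate 1 (0.062, 0.0713 and 0.0667).

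LAMB1, the beta chain of the widespread laminins (chr7:107923799-108003255, minus strand), rose from 44.4, 44.0 and 43.9 FPKM to 60.3, 64.6 and 61.5. The gap of 40.8% was far wider than the spread within groups (log2 difference 0.49, standard error 0.038, adjusted p = 3.94e-05). LAMC1, the gamma chain it joins (chr1:183023460-183145592, plus strand), fell from 93.6, 96.3 and 93.6 FPKM to 81.2, 81.9 and 82.1 (log2 difference -0.21, standard error 0.031, adjusted p = 0.000997). LAMB2, the beta chain that can stand in for LAMB1, rose from 19.8, 22.5 and 20.0 FPKM to 22.8, 25.5 and 24.3 (log2 difference 0.22, adjusted p = 0.0228), a call lost without sh-NC replicate 1, sh-NC replicate 3, sh-TRAF2 replicate 2 or sh-TRAF2 replicate 3 (adjusted p from 0.0633 to 0.0791).

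LAMB3, a beta chain of epithelial laminin, read 26.1, 28.8 and 23.8 FPKM in sh-NC and 27.7, 32.3 and 27.7 in sh-TRAF2, with overlapping groups (adjusted p = 0.155). LAMA3, an alpha chain it joins, was scarce, with 4, 3 and 9 reads in sh-NC and 11, 29 and 16 in sh-TRAF2, a summed ratio of 3.65 (exact 95% interval 2.06 to 6.81, counting error only). LAMA3 was picked after its values were seen, so this interval is a description too. LAMA2, the alpha chain of muscle and Schwann cell laminin, also lay under the level filter, at 144, 159 and 155 reads in sh-NC and 243, 225 and 202 in sh-TRAF2.

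With limma-voom on the recovered reads, which took in 53 members, LAMA2 and LAMA3 were past the threshold (adjusted p = 0.00411 and 0.0204, the second for a gene that entered the fit only through the group in which it was high), as were COL7A1, the anchoring fibril collagen (0.00817), and COL21A1 (0.0217). That raised the higher members to 11 and left the lower members at 17, where 21.4% and 19.4% of all 14130 genes in that fit were higher and lower.

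Receptors were led by ITGB3, the beta 3 subunit that pairs with alpha V to bind vitronectin, fibronectin and other ligands with an Arg-Gly-Asp motif (chr17:47253846-47311816, plus strand). Its FPKM was 4.07, 4.46 and 3.70 in sh-NC and 1.78, 1.53 and 1.47 in sh-TRAF2, from 817 to 948 reads against 307 to 369. The level fell by 60.9% (log2 difference -1.30, standard error 0.10, adjusted p = 4.45e-05), the largest change among the members compared. With a pseudocount of 1 the log2 difference was -0.97, which ended the call at the fold threshold and not the one on adjusted p. Exons of ITGB3 overlap those of AC068234.1 on the same strand, and reads from these cannot be told apart. The partner of ITGB3, ITGAV, read 48.7, 49.9 and 49.5 FPKM against 50, 46.7 and 46.3, with overlapping groups (adjusted p = 0.331).

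A heptamer of a TRAF2 hairpin is printed beside its match in ITGB3, because ITGB3 was the only one of the 38 members compared whose longest annotated 3′UTR holds it. The capitals mark ATTCCAC, bases 10 to 16 of the target sequence of sh-TRAF2#1, and the ITGB3 match lies at chr17:47311043-47311071 (GRCh38, plus strand):
sh-TRAF2#1: cccttgcagATTCCACgccat
ITGB3: tttacctcctaATTCCACaccctcactgc
The other hairpin target of the study, sh-TRAF2#2, does not hold it. Of 10818 compared genes with an annotated 3′UTR, 10.6% hold the heptamer, and the share was 17.6% among those lower in sh-TRAF2, 5.84% among those higher and 9.79% among those not past the threshold. Among the members it was 1 of 17 lower genes (5.88%). The heptamer was chosen with earlier results of these data known, so its shares by direction describe these data and test nothing. The match is a description, and its part in the level of ITGB3 was not tested.

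ITGB1, the beta subunit shared by most matrix-binding integrins (chr10:32900319-33005792, minus strand), read 187, 183 and 182 FPKM in sh-NC and 167, 147 and 154 in sh-TRAF2. It fell by 15.3% (log2 difference -0.24, standard error 0.046, adjusted p = 0.0034), with the groups apart. ITGB5, another partner of alpha V, fell from 14.9, 15.5 and 15.8 FPKM to 12.7, 13.1 and 14.3 (log2 difference -0.21, adjusted p = 0.0168). That call was lost without sh-NC replicate 3, sh-TRAF2 replicate 1 or sh-TRAF2 replicate 2 (adjusted p = 0.0533, 0.0533 and 0.0547). ITGB4, the hemidesmosome subunit that pairs with alpha 6, fell from 12.3, 12.1 and 14.1 FPKM to 9.02, 11 and 11.1 (log2 difference -0.31, adjusted p = 0.0253), a call lost without sh-NC replicate 3 (0.0779) or sh-TRAF2 replicate 1 (0.0605). ITGB8, which presents latent TGF-beta, was the only beta subunit compared that was not past the threshold (adjusted p = 0.551), and ITGB2, ITGB6 and ITGB7 had at most 22 reads.

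Among the alpha subunits, ITGA3 had the highest level of all 73 genes and fell clearly. ITGA3 (chr17:50055968-50090481, plus strand), which pairs with beta 1 to bind laminins, read 275, 263 and 271 FPKM in sh-NC and 184, 195 and 206 in sh-TRAF2, a fall of 27.7% (log2 difference -0.47, standard error 0.044, adjusted p = 0.000107). The other laminin-binding subunits did not pass the threshold, ITGA6 at 29.8, 28.3 and 29.1 FPKM against 33.0, 28.8 and 30.5 (adjusted p = 0.256) and ITGA7 at 1.07 to 1.24 FPKM throughout (adjusted p = 0.832). ITGA2, a collagen-binding subunit, fell from 23.7, 20.3 and 22.3 FPKM to 19.7, 15.5 and 18.2 (log2 difference -0.31, adjusted p = 0.0225), a call lost without sh-NC replicate 1, sh-NC replicate 3 or sh-TRAF2 replicate 2 (0.0755, 0.0559 and 0.0563).

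ITGA5, the fibronectin receptor subunit (chr12:54395261-54419460, minus strand), changed least of the members compared, at 103, 101 and 99.4 FPKM in sh-NC and 100, 103 and 99.3 in sh-TRAF2 (standard error of the log2 difference 0.032, adjusted p = 0.988). ITGA4, whose product binds VCAM1 and an alternative segment of fibronectin, was the only receptor that rose, from 1.32, 1.30 and 1.37 FPKM to 1.90, 1.82 and 1.96 (log2 difference 0.48, standard error 0.091, adjusted p = 0.00345). The groups were apart, on 343 to 375 reads against 461 to 507. ITGA8, ITGA9, ITGA10 and ITGA11 had at most 17 reads in any sample.

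Chains that assemble together were also compared as ratios of FPKM within a sample. The 6 pairs were picked after their values were seen, so the ratios are given as a description without a test. The size of a ratio depends on the transcript lengths the authors used. These came to 2.09 times the annotated exons for COL4A1, 0.502 times for COL4A2, 1.27 times for COL5A1 and 1.36 times for ITGB3. For such pairs only the change between groups can be read. COL5A2 over COL5A1 was 1.90, 1.60 and 1.90 in sh-NC and 4.53, 3.94 and 4.59 in sh-TRAF2. COL4A1 over COL4A2 was 0.127, 0.125 and 0.130 against 0.199, 0.185 and 0.202. The collagen VI pair differed least, COL6A1 over COL6A2 being 0.851, 0.840 and 0.841 against 0.891, 0.864 and 0.905. For laminin, LAMB1 over LAMC1 was 0.475, 0.457 and 0.469 against 0.742, 0.788 and 0.748. In the receptors both ratios were lower in sh-TRAF2, ITGB3 over ITGAV from 0.0835, 0.0894 and 0.0747 to 0.0357, 0.0327 and 0.0318, and ITGA3 over ITGB1 from 1.47, 1.44 and 1.49 to 1.10, 1.32 and 1.34.

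**Figure D3:**
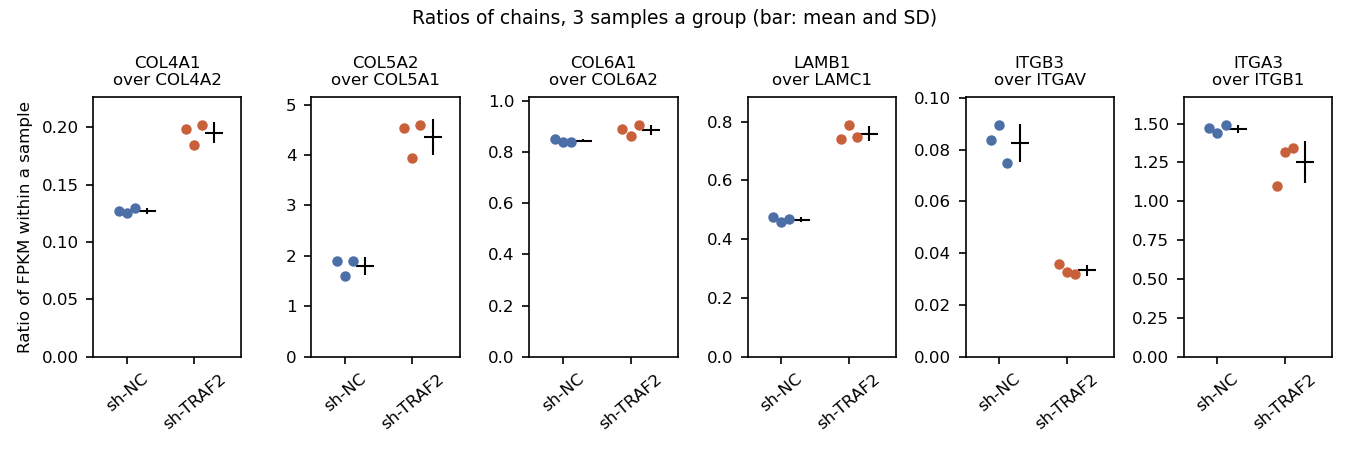
Ratio of the FPKM of paired chains within each sample (axis from 0), with 3 samples per group as points and the mean with its SD as a black bar. The COL5A2 over COL5A1 ratio averages 1.80 in sh-NC and 4.35 in sh-TRAF2, while the COL6A1 over COL6A2 ratio averages 0.844 and 0.887. The size of a ratio depends on the transcript lengths the authors used, and with the same reads its fold change between groups does not.

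Genes that act on or with these members were read from 5 lists, of which 98 genes were in the table and 79 were compared. Over the 79, 13 were higher (16.5%, beside 23.7% of all genes) and 21 were lower (26.6%, beside 20.9%), with a median log2 difference of 0.00. Enzymes and chaperones that fold, hydroxylate and cross-link collagen had 0 of 21 higher and 8 lower with limma (median -0.09). The shares of all genes were 23.7% and 20.9%. At an unadjusted p under 0.05 the counts were 3 and 11, beside 27.9% and 24.8% of all genes. With limma-voom on the recovered reads, 3 of 26 were higher and 9 lower, beside 21.4% and 19.4% of all genes in that fit. PPIB, the prolyl isomerase that folds procollagen, fell from 243, 233 and 240 FPKM to 148, 143 and 151 (log2 difference -0.70, adjusted p = 4.32e-06). FKBP10, another collagen-folding isomerase, fell by a log2 difference of -0.63 (adjusted p = 0.000145), and the cross-linking oxidase LOXL2 by -0.48 (adjusted p = 0.00112). Basement membrane partners of collagen IV and laminin had 0 of 7 higher and 3 lower with limma, beside 23.7% and 20.9% of all genes. Unadjusted p under 0.05 gave the same counts, beside 27.9% and 24.8% of all genes. Limma-voom called 0 of 8 higher and 4 lower, beside 21.4% and 19.4% of all genes in that fit. NTN4, a laminin-related netrin, fell by a log2 difference of -0.56 (adjusted p = 0.00138), the collagen-binding SPARC by -0.33 (adjusted p = 0.00558) and FBLN1 by -0.24 (adjusted p = 0.0126).

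The other integrin ligands had 4 of 13 higher and 1 lower (median 0.07), which is 30.8% and 7.69% beside 23.7% and 20.9% of all genes. TGFBI, an integrin ligand bound to collagen, fell from 326, 322 and 342 FPKM to 180, 178 and 194 (log2 difference -0.84, adjusted p = 4.41e-06). THBS1, thrombospondin 1, rose from 56.3, 57.0 and 51.9 FPKM to 92.4, 90.9 and 94.8 (log2 difference 0.75, adjusted p = 1.02e-05), and CCN2, a matricellular ligand, rose by 0.49 on the log2 scale (adjusted p = 0.00165). The adhesion machinery inside the cell had 5 of 22 higher and 4 lower (median 0.04), shares of 22.7% and 18.2% that lie near those of all genes. ILK, which docks on beta integrin tails, rose from 44.6, 44.4 and 41.1 FPKM to 67.0, 68.2 and 65.0 (log2 difference 0.62, adjusted p = 2.59e-05), and the actin cross-linkers ACTN1 and ACTN4 rose by 0.55 and 0.28 on the log2 scale (adjusted p = 2.8e-05 and 0.000871).

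Matrix receptors other than integrins had 4 of 16 higher and 5 lower (median -0.09), 25.0% and 31.2% beside 23.7% and 20.9% of all genes, with the proteoglycans in both directions. SDC2, a syndecan, rose from 2.33, 1.90 and 2.40 FPKM to 5.05, 4.19 and 4.94 (log2 difference 1.07, adjusted p = 0.000163). SDC4, the syndecan of focal adhesions, fell from 177, 167 and 169 FPKM to 122, 114 and 115 (log2 difference -0.55, adjusted p = 2.73e-05), and the glypican GPC1 fell by a log2 difference of -0.72 (adjusted p = 0.000165). The collagen receptor kinases DDR1 and DDR2 were both lower, by log2 differences of -0.41 and -0.32 (adjusted p = 0.0136 and 0.00874).

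**Figure D4:**
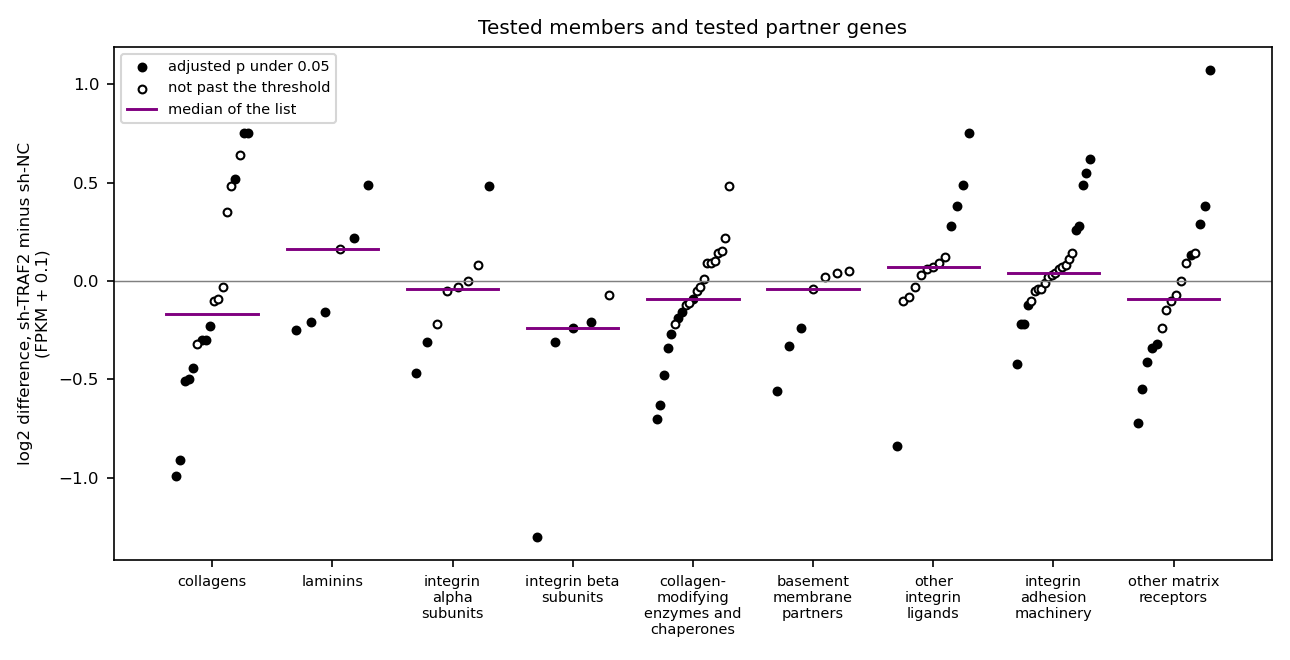
Log2 difference (sh-TRAF2 minus sh-NC, FPKM + 0.1) of the compared genes in the 4 member classes (1 compared gene is not shown) and the 5 partner lists, with filled points for an adjusted p under 0.05 and a line for the median of all compared genes of a list. The medians lie between -0.24 for the integrin beta subunits and 0.16 for the laminins, and the collagen-modifying genes have filled points below 0 only.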

How the data were processed

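Total RNA of U251 cells was sequenced by OE Biotech with a VAHTS Universal V6 kit. The authors deposited FPKM values, 1 per gene and sample. The submitters' processing notes name HISAT2, HTSeq, R 3.2.0 and DESeq2 without their roles, and the genome build, annotation and use of strand are not given in the sources used here. Groups were taken from the sample titles.

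Starting from the FPKM as deposited, each value was converted to log2(FPKM + 0.1), a scale that understates the change of low genes. The filter kept the 11870 of 23002 genes whose FPKM averaged 0.5 or more over the 6 samples. The sh-TRAF2 samples were compared with the sh-NC samples with limma 3.58.1 in R 4.3.3 (lmFit, eBayes with a trend, two-sided, group as the only term), with Benjamini-Hochberg adjustment over all genes kept. Every adjusted p comes from this fit unless limma-voom is named. Members and lists were chosen with earlier results of these data known, so no p was adjusted over a list and no set test was run.

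The FPKM of a gene are whole multiples of what 1 read is worth, so the reads were taken as the smallest set of whole numbers in the same proportions. This gave whole reads for 100% of genes (ratios within 1e-12). The number is a lower limit for 2643 genes that had reads in a single sample, and for any gene whose true reads share a common factor. The recovered reads gave the depth, exact intervals for sparse genes, and a limma-voom fit of the 14130 genes averaging 10 reads or more. The fit was tested on simulated data with 11870 genes, where 82 of 100 genes changed by 0.75 on the log2 scale and 92 of 100 changed by 1.5 were called, beside 13 of 11670 unchanged genes. Far fewer genes changed there than in the data, where 44.6% were past the threshold. With so few changes the adjustment is stricter, so the simulation does not give the number of false calls in the data.

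The rule for named genes took TRAF2, members past the threshold with an absolute log2 difference of at least 0.5, the 2 highest members of each class, the usual partner chains of these, and the 3 partner genes of each list with the smallest adjusted p. The values of 1 such gene are not given here. Any other gene given with values was picked after its values were seen. COL6A5, COL22A1 and LAMC3 were not analysed here. The fit was repeated with pseudocounts of 1 and 0.01, without the filter or with it at 1, after scaling the columns to equal sums (TPM) or to equal quantiles, with replicate numbers as blocks, with a flat eBayes prior, with limma-voom, and leaving out each sample in turn on the same genes. Promoter windows were RefSeq (GRCh38.p14), positions and 3′UTRs were GENCODE release 29 (GRCh38), and hairpin targets came from the study's supplement. Python 3.11.15, pandas 2.3.3, numpy 2.4.6, scipy 1.17.1 and matplotlib 3.10.9 were used.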

Additional observations from a re-analysis of the deposited data

How the results depend on the processing

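Over 15 alternatives, 479 comparisons of the named genes gave 473 on the same side of the threshold, with 0 reversed among genes past it. The sign of ITGA5, near 0 in the report, was not kept (log2 difference from -0.01 to 0.01 without 1 sample). Of the other comparisons, 4 lost the threshold (COL11A1 without a filter, ITGB5 in 3 of the fits without 1 sample) and 2 gained it. COL4A2 gained it with quantile normalization (log2 difference -0.15, adjusted p = 0.0157) and without sh-NC replicate 3. Of all 24 members past the threshold, 17 stayed past it under every alternative that held them, and COL11A1, ITGA2, ITGB4, ITGB5, LAMA4, LAMA5 and LAMB2 did not. COL21A1, not past it in the report, was past it with 5 alternatives, among them the fits without sh-NC replicate 3 (adjusted p = 0.0245) and without sh-TRAF2 replicate 1 (0.0428).

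Higher matrix genes numbered 6 in the report and 10 with limma-voom, which held 39 matrix genes in place of 25, 4 without a filter and 5 to 8 in the fits without 1 sample. Lower receptors numbered 6, but 4 without a filter or with a flat eBayes prior, and 3 to 6 without 1 sample, the 3 being without sh-NC replicate 3. Past the fold threshold, 1 member was higher with limma-voom against 0. On the lower side the count of 1 became 0 with a pseudocount of 1, and 2 with a pseudocount of 0.01, TPM, quantile normalization or limma-voom, and ran from 1 to 2 without 1 sample, the second member being COL8A1 in each. The matrix median of -0.10 became -0.03 without a filter, -0.16 at a mean FPKM of at least 1 and -0.15 with quantile normalization, and ran from -0.13 to -0.07 without 1 sample. The receptor median of -0.21 became -0.14 with a pseudocount of 1 and -0.06 without a filter, and ran from -0.23 to -0.16 without 1 sample. The cause of these moves was not tested, apart from the wider sets of genes named.

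With the replicate number as a block, matrix counts were 8 higher and 11 lower and receptor counts 1 and 6, and no member was lost. The sample titles do not say whether equal numbers pair the samples. Deviations from the group means correlated at -0.0812, 0.0722 and 0.0728 for equal numbers and at -0.141 to 0.0673 for unequal ones. Correlations this small, from 3 samples per group, cannot decide it. The depth limits the 20 members with a mean under 10 reads, which were in neither limma-voom nor the FPKM fit of the report.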
